A study of Homo sapiens with 24 samples.

Results

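The genes described here are immediate early genes of HSJD-DIPG-007 diffuse midline glioma (DMG) cells, together with KLF6 and ARRDC3. They are FOS, FOSB, JUN, JUNB, EGR1, EGR3, IER2, ATF3, KLF6 and ARRDC3, 10 of the 58676 gene rows of the deposited counts, found by matching the Ensembl identifier of each row to its symbol. They were chosen for how they behaved between the treatment arms at day 0 and from day 0 to day 1, so those contrasts, and that of day 5 with day 0, are given as values with no test. The tests concern day 5 between arms and comparisons among later days. Immediate early genes are transcribed within minutes of a stimulus from promoters whose factors, such as SRF and CREB, are already present and are switched on by kinases of the ERK, p38 and PKA pathways. Their products are mostly short-lived transcription factors that act on later genes, and their transcripts decay fast. In glioma cells they are read as outputs of growth factor and stress signalling.

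FOS and FOSB encode leucine zipper proteins that pair with JUN or JUNB to form the factor AP-1, and ATF3 encodes a stress-induced factor of the same fold. EGR1 and EGR3 encode zinc finger factors, IER2 a small nuclear protein, and KLF6 a Krüppel-like zinc finger factor. ARRDC3 encodes an α-arrestin, an adaptor between membrane receptors and ubiquitin ligases, in the family of TXNIP.

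HSJD-DIPG-007 is an established DMG line that the labels give as H3F3A K27M, ACVR1 R206H and PIK3CA MIS, and every library of both arms carries this genotype. Cells were grown as spheroids and given either vehicle (DMSO) or LLY-283, an inhibitor of the arginine methyltransferase PRMT5, at the concentration that inhibits growth by 40% (GI40), on the day after seeding, and medium and dose were renewed after 5 days. Poly(A) RNA was sequenced in 24 libraries, 12 per arm, with 3 per arm at day 0, 3 at day 5, 2 at day 7 and a single one (1) on days 1, 2, 3 and 10. Libraries of the same arm and day are described as technical repeats of this line, so the p-values measure the spread between repeats and not that between independent cultures.

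The 250 bases before the RefSeq start were searched for 8 short sequences in both strands, to show which signal-responsive letters the upstream sequences of these genes hold. The table of RefSeq promoters used here was matched for 9 of the 10 genes, all but EGR3. The windows of FOS, EGR1, ATF3, KLF6 and ARRDC3 are shown because the results turn most on them, 5′ to 3′ on the strand of the gene, with bases that GENCODE v44 places in a UTR left off and with matches in capitals. All coordinates are on GRCh38.p14. ARRDC3 and ATF3 have a pair of starts each. Both windows of ARRDC3 are given, as outer and inner, and that of ATF3 at its outer start.
FOS, chr14:75278578-75278825, plus strand: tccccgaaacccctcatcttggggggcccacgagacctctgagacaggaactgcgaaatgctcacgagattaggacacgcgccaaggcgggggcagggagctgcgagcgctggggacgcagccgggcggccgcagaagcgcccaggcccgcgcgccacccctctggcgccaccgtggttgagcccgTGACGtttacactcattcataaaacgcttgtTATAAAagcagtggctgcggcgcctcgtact
EGR1, chr5:138465229-138465478, plus strand: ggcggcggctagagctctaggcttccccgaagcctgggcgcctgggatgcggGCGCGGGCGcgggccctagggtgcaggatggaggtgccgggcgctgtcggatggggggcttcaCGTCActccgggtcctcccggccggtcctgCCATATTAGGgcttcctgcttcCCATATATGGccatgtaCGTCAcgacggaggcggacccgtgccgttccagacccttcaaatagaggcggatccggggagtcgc
ATF3, chr1:212565157-212565333, plus strand: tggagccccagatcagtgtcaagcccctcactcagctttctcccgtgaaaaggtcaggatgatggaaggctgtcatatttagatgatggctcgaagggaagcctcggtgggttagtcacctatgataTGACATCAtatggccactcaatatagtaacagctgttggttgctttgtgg
KLF6, chr10:3785282-3785459, minus strand: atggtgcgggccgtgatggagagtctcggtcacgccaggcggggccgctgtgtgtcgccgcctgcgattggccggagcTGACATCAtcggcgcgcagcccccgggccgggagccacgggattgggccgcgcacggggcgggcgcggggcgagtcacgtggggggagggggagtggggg
ARRDC3 outer, chr5:91383318-91383567, minus strand: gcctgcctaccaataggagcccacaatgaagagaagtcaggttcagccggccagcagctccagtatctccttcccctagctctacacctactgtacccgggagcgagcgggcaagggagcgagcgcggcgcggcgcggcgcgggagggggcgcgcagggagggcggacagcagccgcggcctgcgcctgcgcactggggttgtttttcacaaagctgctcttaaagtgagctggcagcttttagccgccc
ARRDC3 inner, chr5:91380098-91380347, minus strand: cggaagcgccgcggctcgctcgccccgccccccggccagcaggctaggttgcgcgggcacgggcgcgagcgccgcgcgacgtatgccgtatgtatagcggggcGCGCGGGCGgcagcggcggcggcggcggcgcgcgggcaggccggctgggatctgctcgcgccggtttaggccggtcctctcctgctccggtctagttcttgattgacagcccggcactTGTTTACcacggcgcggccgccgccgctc

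The capitals in FOS mark TGACG, the core of the cyclic AMP response element, and the TATA-box letters TATAAA. In EGR1 they mark a pair of CArG boxes, the sequence bound by SRF, with TGACG on the minus strand as CGTCA at 2 places, and the EGR site GCGNGGGCG. ATF3 and KLF6 hold TGACATCA, and the inner ARRDC3 window holds the forkhead letters TGTTTAC and an EGR site. The outer ARRDC3 window holds no match. Below, a gene counts where any of its windows holds a match, and ATF3 and ARRDC3 have a pair each. The shares are instead per promoter entry, so the units are not quite alike. Of the 9 genes, 1 (EGR1) had a CArG box, against 1.16% of all 35116 promoters. TGACATCA was found in 3 (ATF3, JUN and KLF6), against 2.37%. TGACG was found in 6 (EGR1, FOS, FOSB, IER2, JUN and JUNB) against 21.2%, and TATAAA in 4 (FOS, FOSB, JUNB and, at its inner start only, ATF3) against 10.7%. GCGNGGGCG was found in 3 (ARRDC3, EGR1 and, in the bases left off above, KLF6) against 8.41%, and TGTTTAC in 2 (ARRDC3 and JUNB) against 2.98%. TGACGTCA, which contains TGACG, and the AP-1 letters TGANTCA were in 0 windows, against 1.65% and 6.57%. A match is a description of letters and no measure of binding. Bases farther upstream than these windows were not searched, so a count of 0 holds for the windows alone.

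The files held between 13835205 and 23190369 estimated counts per library, and levels below are CPM, estimated counts scaled to a common library size, after TMM scaling, whose factors lay between 0.938 and 1.05. Of 8 glioma and oligodendrocyte precursor markers, 7 were detected in all libraries, with a summed level between 7135 and 8667 CPM, while SOX10 was at most 0.6 CPM. The 6 microglia markers summed to 0.12 to 1.03 CPM, with TYROBP at 0 throughout. A signature of the day 5 arm difference, made without the 10 genes and set to 0% for the vehicle and 100% for the LLY-283 mean of day 5, placed the library labelled vehicle day 7 repeat 2 at 46.9% and its LLY-283 counterpart at -8.69%. Repeat 1 of day 7 lay at -3.88% and 73%, and the vehicle library of day 10 at 61.1%. Day 7 is therefore given by label and by library.

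Per kilobase of exon, IER2 had the highest level and FOSB the lowest. The day 0 vehicle mean was 50.4 ± 1.45 CPM per kb for IER2 (SD, n = 3), 33.7 ± 2.07 for JUN and 29.7 ± 0.729 for JUNB. KLF6 at 21.3 ± 0.901 and EGR1 at 20.6 ± 1.51 CPM per kb overlapped, and the others were in the order ARRDC3, FOS, EGR3, ATF3 and FOSB, from 6.96 to 0.341 CPM per kb. At day 5 in vehicle EGR1, at 37.3 ± 2.01 CPM per kb, lay above KLF6, at 13 ± 0.419, and ARRDC3 at 3.83 overlapped FOS at 3.63. FOSB rests on 3 to 45 counts and ATF3 on 12 to 61 counts per library, whereas the other 8 had at least 43. Exons of JUNB, EGR3, IER2 and ARRDC3 overlap those of genes on the opposite strand (HOOK2 for JUNB and ARRDC3-AS1 for ARRDC3), and whether counting used strand is not given in the sources used here.

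At day 0, KLF6, ARRDC3, FOS, JUNB and EGR1 were higher in every library assigned to LLY-283 than in every vehicle library, by 0.19 to 0.44 in the log2 difference of means. KLF6 (chromosome 10, 3775996 to 3785281) was at 125, 134 and 134 CPM under vehicle and at 160.2, 148 and 157 CPM in the LLY-283 arm. ARRDC3 (chromosome 5, 91368631 to 91383317) was at 33.9, 35.8 and 34.4 CPM under vehicle and 45.5, 43.4 and 43.6 CPM in the LLY-283 arm. Both genes thus had arms that did not overlap, with a log2 difference of means of 0.24 and 0.34. FOS (chromosome 14, 75278826 to 75282230) was at 8.22, 7.62 and 8.84 CPM against 12.6, 11.2 and 10.2 CPM. EGR1 (chromosome 5, 138465479 to 138469303) was at 59.1, 66.2 and 68.2 CPM against 76.8, 71.6 and 74.5 CPM. JUNB was at 53.6, 53.5 and 55.9 CPM against 66, 61.5 and 58.9 CPM. The LLY-283 arm was therefore the upper one in 5 of the 10 genes, where 5.49% of 17780 genes had that order, and the choice of the genes used this contrast. In either direction the share was 10.9%. The arms overlapped in FOSB, JUN, EGR3, IER2 and ATF3. Because these are bulk samples, fewer cells of a type and less RNA per cell cannot be told apart.

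KLF6 and ARRDC3 entered the list for their difference between the arms at day 0. Past an adjusted p of 0.01 (edgeR) in that contrast were 3 genes (0.0169%), both of these among them. This threshold describes the choice and is no test of the genes chosen. The other was TRIM8-DT, at 0 to 0.195 CPM against 1.34 to 2.47 CPM. Just outside lay ENSG00000278903, TXNIP and STAG3L5P-PVRIG2P-PILRB. TXNIP, another α-arrestin gene, was at 84.4 to 95.8 CPM under vehicle and 103 to 115 CPM in the LLY-283 arm.

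**Figure D1:**
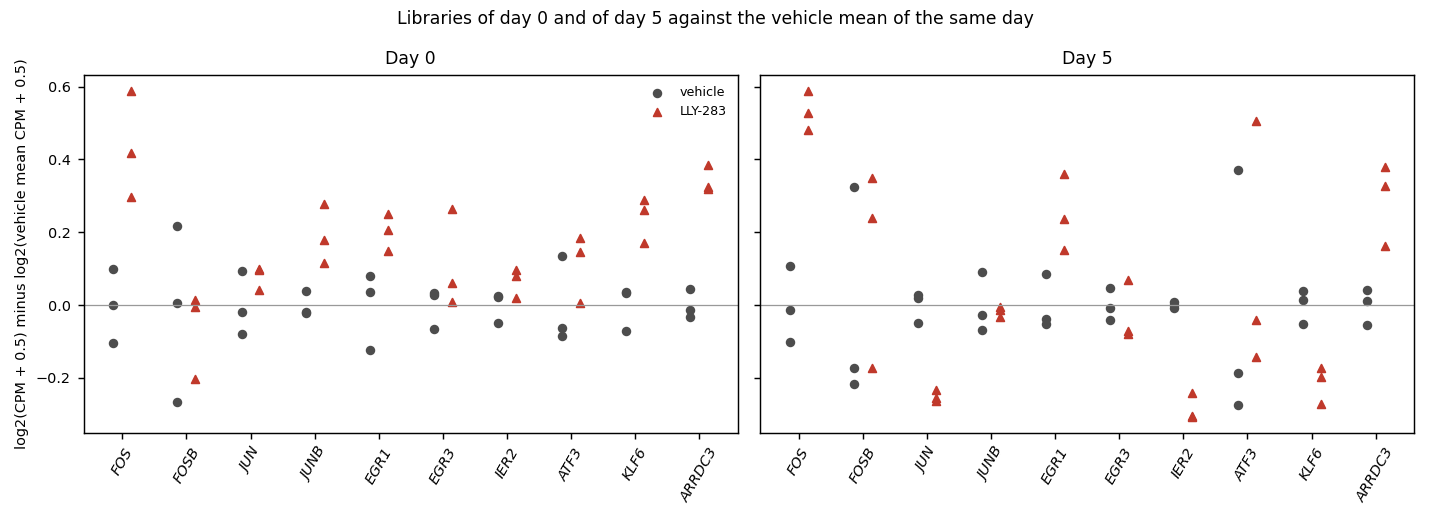
Each point is a library of day 0 (left) or day 5 (right), as log2(CPM + 0.5) less that of the vehicle mean of the same day. Circles are vehicle and triangles LLY-283, 3 each. KLF6 lies above vehicle at day 0 and below it at day 5, whereas FOS, EGR1 and ARRDC3 lie above it on both days.

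From day 0 to day 1, FOSB, ATF3 and KLF6 were lower by more than 0.5 on the log2 scale in both arms, and 0 of the 10 genes were higher by that much in both. In all genes past the filter on low counts the share was 3.24% lower and 1.59% higher. KLF6 went from a day 0 mean of 131 to 86 CPM under vehicle and from 155 to 79.4 CPM under LLY-283. Its log2 differences were -0.60 and -0.96, so that the arm that was upper at day 0 was the lower one a day later. FOSB went from 1.89 to 0.657 CPM and from 1.79 to 0.396 CPM. ATF3 went from 2.67 to 0.964 CPM and from 2.93 to 0.849 CPM. ARRDC3 fell short of 0.5 in vehicle, going from 34.7 to 25.1 CPM, a log2 difference of -0.46, and from 44.2 to 26.5 CPM under LLY-283, a difference of -0.73. Day 1 has a single library per arm, so these differences have no replicate check.

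The AP-1 genes of higher level went less far, and EGR1 went the other way. FOS was at 9.03 CPM under vehicle and 8.27 CPM under LLY-283 at day 1, so that its arms, apart at day 0, came together by a change of 0.13 in vehicle and -0.43 with LLY-283. JUNB was at 52.4 and 49.4 CPM (changes of -0.05 and -0.33), and JUN at 131 and 122 CPM (changes of 0.10 and -0.08). EGR1 was above day 0 in vehicle at 90.3 CPM, a change of 0.48, and in the LLY-283 arm at 80.2 CPM, a change of 0.11. IER2 was at 185 and 169 CPM and EGR3 at 5.13 and 5.21 CPM. For all 10 genes the change with LLY-283 was the lower of the pair, and the median change was -0.224 in vehicle and -0.462 with LLY-283, beside -0.0211 and -0.00982 over 20101 genes. The day 0 mean was the upper one in the LLY-283 arm for 9 of the 10, and it enters each of these changes.

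**Figure D2:**
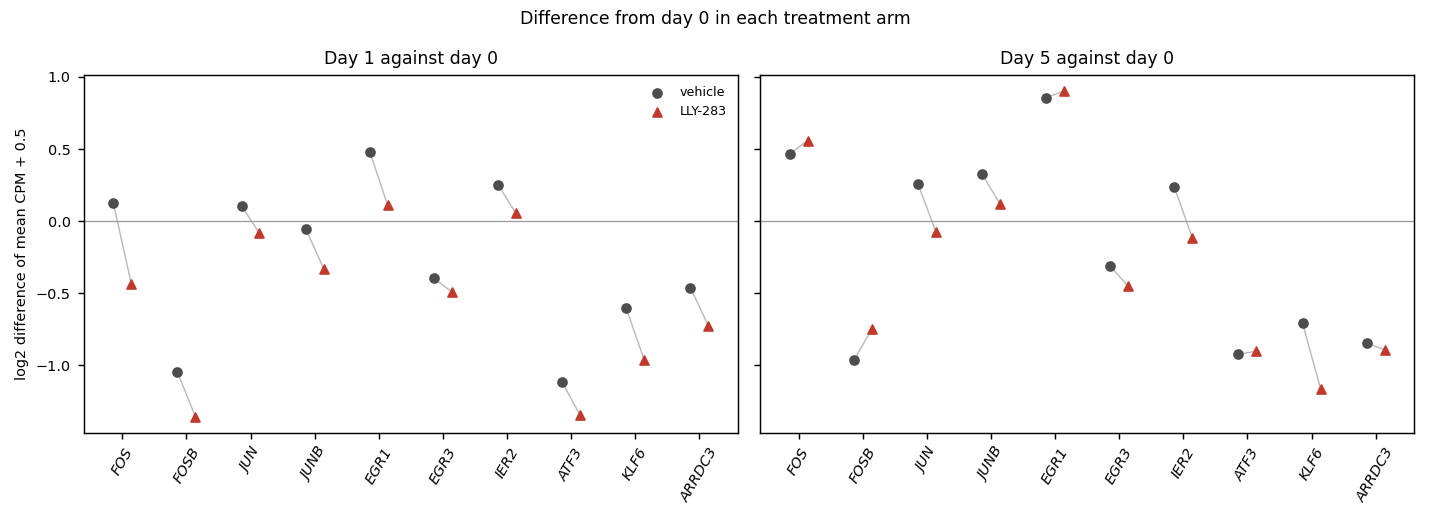
Points give the log2 difference of the mean CPM + 0.5 from the day 0 mean of the same arm, for day 1 (left, 1 library per arm) and day 5 (right, 3 per arm). FOSB, EGR3, ATF3, KLF6 and ARRDC3 lie below 0 in both panels and EGR1 above 0, at 0.85 and 0.90 by day 5. Libraries of day 0 and day 5 carry separate runs of library numbers, so on the right time and that numbering cannot be told apart.

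In KLF6, ARRDC3, FOSB and ATF3 all 3 day 0 libraries lay above the 9 later libraries of their arm, in both arms. The share of all genes with this order or its reverse was not counted, and the choice of the genes used day 0. For ATF3 in vehicle the gap was small, since day 10 was at 2.46 CPM and the lowest day 0 library at 2.49 CPM. KLF6 ran from 70.7 to 97.3 CPM in the later vehicle libraries with a median of 79.3, against 61.1 to 94 CPM with a median of 69.4 in the LLY-283 arm. ARRDC3 ran from 14.2 to 27.8 CPM (median 19.9) and from 20.6 to 31.2 CPM (median 24.1). EGR1 was the reverse case, with all day 0 libraries of both arms below their later ones, which ran from 90.3 to 174 CPM under vehicle and from 80.2 to 217 CPM under LLY-283. The share of counts from mitochondrial genes was also highest at day 0, at 4.54% to 5.4% against 2.73% to 4.39% later, and its part in these values was not tested.

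**Figure D3:**
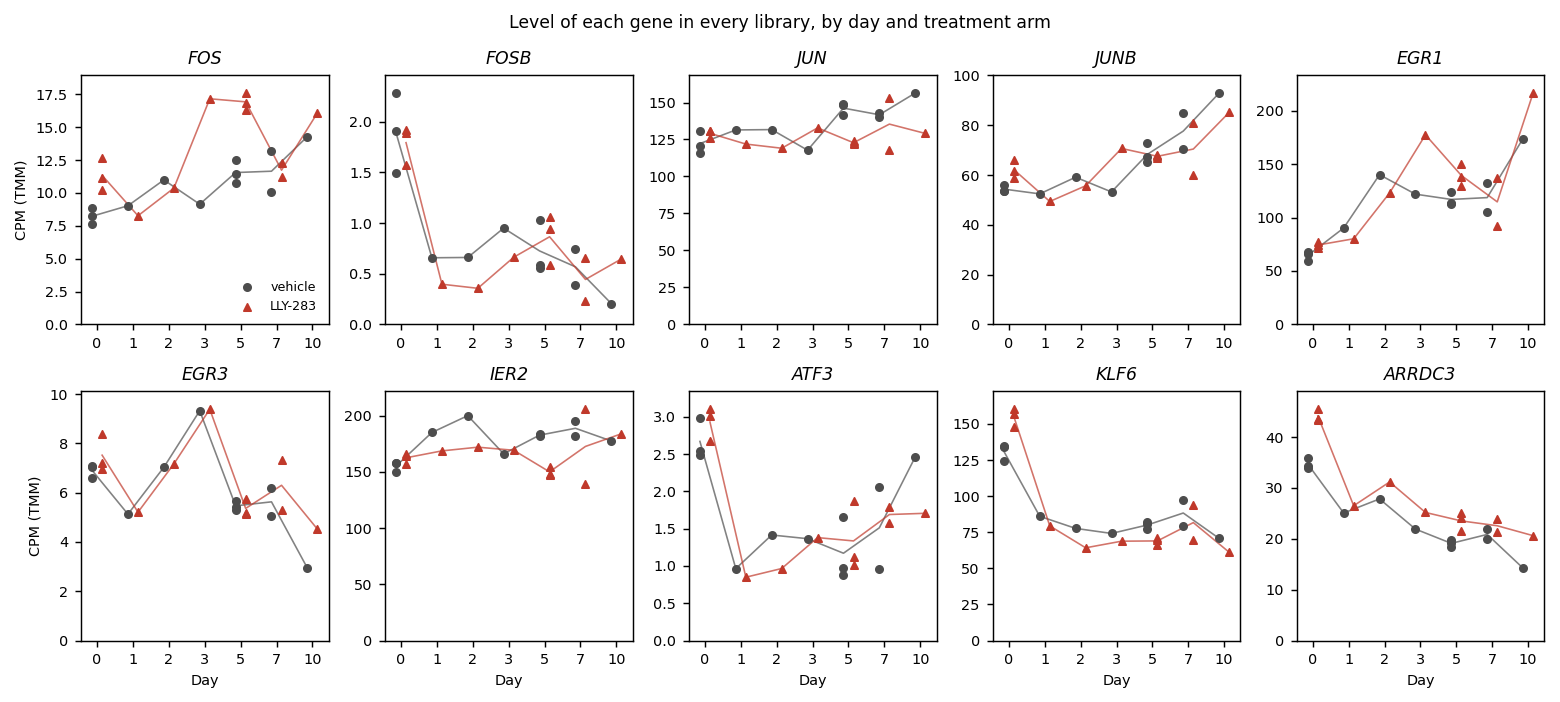
CPM of each gene in all 24 libraries against the day, with circles for vehicle and triangles for LLY-283, and lines through the arm means. The vertical axis of each panel starts at 0 and has its own scale. KLF6, ARRDC3, FOSB and ATF3 start high, and FOS and EGR1 with LLY-283 reach 17.2 and 178 CPM at day 3.

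At day 5, FOS, EGR1 and ARRDC3 were higher and JUN, IER2 and KLF6 lower with LLY-283 than with vehicle, each by under 1.5 times. In this comparison 6 of the 10 genes passed an adjusted p of 0.01, where 26.1% of 16491 genes did, 12% higher and 14.1% lower. The 6 also had arms that did not overlap, as did 45.2% of the genes tested. The median log2 fold change over the 10 was 0.077 and that of all genes 0.0206. Tests were those of edgeR, adjusted over all genes tested, and all 10 genes passed the filter on low counts in every comparison. FOS, EGR1 and ARRDC3 were already higher in the LLY-283 arm at day 0, by 0.44, 0.20 and 0.34 in the log2 difference of means. Day 0 stands for 0 days of treatment, and the part of that earlier order in the day 5 differences was not tested.

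FOS was at 11.4, 10.7 and 12.5 CPM in the vehicle libraries and at 16.3, 17.6 and 16.9 CPM under LLY-283. Its log2 fold change of 0.55 (SE, the standard error, 0.0891, adjusted p = 1.7e-05, edgeR) was the largest of the 10. EGR1 was at 124, 113 and 114 CPM under vehicle and 138, 130 and 150.5 CPM under LLY-283. The arms of EGR1 lay closer to each other, with with 0.24 as log2 fold change (SE 0.0568, adjusted p = 0.00433, edgeR). Its call was lost without vehicle repeat 2 or 3 or LLY-283 repeat 1.

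JUN (chromosome 1, 58776845 to 58784048), the partner of FOS in AP-1, went the opposite way from FOS. It was at 149, 141 and 148 CPM under vehicle and at 124, 122 and 122 CPM under LLY-283, with -0.26 as log2 fold change (SE 0.0373, adjusted p = 2.7e-06, edgeR). JUNB, another gene of the JUN family, was at 65.1 to 72.7 CPM under vehicle and 66.8 to 68 CPM under LLY-283. Its arms overlapped and its log2 fold change was -0.02, with a 95% interval from -0.115 to 0.0691. IER2 (chromosome 19, 13150411 to 13154911) was at 184, 182 and 183 CPM under vehicle and 155, 148 and 148 CPM under LLY-283. The vehicle libraries of IER2 lay close together and apart from the others, and the fold change on the log2 scale was -0.29 (SE 0.0356, adjusted p = 2.08e-07, edgeR).

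KLF6 and ARRDC3 differed in opposite directions at day 5. KLF6 was at 77.2, 82.2 and 80.7 CPM under vehicle and at 69.7, 71 and 66.3 CPM under LLY-283, with -0.22 as log2 fold change (SE 0.0447, adjusted p = 0.000235, edgeR). The arm in which KLF6 was the upper one at day 0 was thus the lower one at day 5. ARRDC3 was at 19.3, 18.4 and 19.7 CPM under vehicle and 24.1, 21.5 and 25 CPM under LLY-283, with 0.29 as log2 fold change (SE 0.0752, adjusted p = 0.00285, edgeR). ARRDC3 kept its day 0 direction, and its call was lost without any of 4 libraries (vehicle repeat 1 or 2, LLY-283 repeat 1 or 3) and with DESeq2. Where the spread was shared over all 24 libraries, FOS and JUN kept an adjusted p under 0.01 and EGR1, IER2, KLF6 and ARRDC3 did not.

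The genes of low level gave wide intervals. FOSB was at 0.554 to 1.03 CPM under vehicle and 0.59 to 1.06 CPM under LLY-283, and its log2 fold change of 0.24 had a 95% interval from -0.508 to 0.987. ATF3 was at 0.882 to 1.66 CPM and 1.01 to 1.87 CPM, with 0.18 and an interval from -0.47 to 0.823. EGR3 was at 5.3 to 5.66 CPM and 5.15 to 5.76 CPM, with -0.03 and an interval from -0.314 to 0.244. Differences in FOSB and ATF3 of the size seen in FOS were not detectable at this depth. The 10 fibroblast markers summed to 402.5 CPM in vehicle repeat 3, against 238 and 248 CPM in the other vehicle libraries and 330 to 339 CPM under LLY-283, and the 6 genes that passed the test kept their directions without that library, though EGR1 lost its call.

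**Figure D4:**
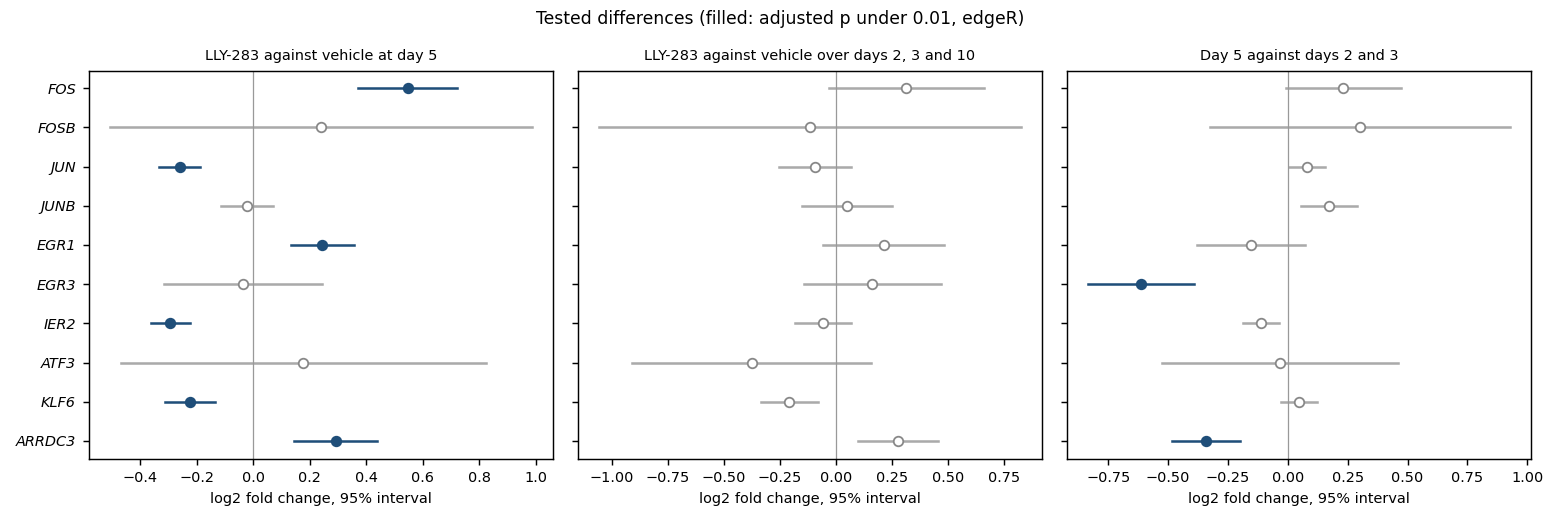
Log2 fold change and 95% interval of each gene for LLY-283 against vehicle at day 5 (left, 6 libraries), over days 2, 3 and 10 with day as a block (middle, 6 libraries) and for day 5 against days 2 and 3 averaged over the arms (right, 10 libraries). Filled points passed an adjusted p of 0.01, 6, 0 and 2 genes from left to right. Intervals treat the SE as normal and can be narrower than the test allows. On the right that of JUN excludes 0, at an unadjusted p of 0.0531 (edgeR).

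Days 2, 3 and 10 have a single library per arm each and were tested together, with the day as a block. Labels were kept as given, though on the day 5 signature the vehicle library of day 10 lay at 61.1% and its LLY-283 counterpart at 96.8%. 0 of 17234 genes passed, so 0% is the background of these 10, with 2756 genes (16%) at an unadjusted p under 0.05 and 54 called by DESeq2. KLF6 was the lower with LLY-283 on all 3 days, with 77.7 and 64.2 CPM on day 2, 74.2 and 68.8 CPM on day 3 and 70.7 and 61.1 CPM on day 10. Its log2 fold change of -0.21 (SE 0.065, adjusted p = 0.149, edgeR) was close to that of day 5. ARRDC3 was the higher on all 3 days, at 27.8 and 31.2, 21.9 and 25.2, and 14.2 and 20.6 CPM. The fold change on the log2 scale was 0.28 (SE 0.0911, adjusted p = 0.168, edgeR). FOS and EGR1 differed by day. FOS was at 11 and 10.4 CPM on day 2, 9.15 and 17.2 CPM on day 3 and 14.3 and 16.1 CPM on day 10. EGR1 was at 140.2 and 123, 122 and 178, and 174 and 217 CPM. In both genes the LLY-283 library was the lower at day 2 and the higher at days 3 and 10, and their adjusted p-values were 0.428 and 0.53 (edgeR).

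At day 7, grouped by label, 0 of the 10 genes and 0 of 16826 genes (0%) passed, with 236 (1.4%) at an unadjusted p under 0.05 and 3 called by DESeq2. The direction between arms differed between repeat 1 and repeat 2 in 9 of the 10 genes, with JUNB the exception. The share over all genes was not counted, and the day 5 signature, made without the 10 genes, also had the reverse order in repeat 2. JUN was at 143 and 140.4 CPM in the libraries labelled vehicle (repeats 1 and 2) and at 118 and 153 CPM in those labelled LLY-283. IER2 was at 182 and 195 CPM against 139.6 and 206 CPM. KLF6 was at 97.3 and 79.3 CPM against 69.4 and 94 CPM, and ARRDC3 at 19.9 and 21.8 CPM against 23.8 and 21.3 CPM. In each of these 4 genes the repeat 1 libraries had the order of day 5 and the repeat 2 libraries did not. FOS was at 10.1 and 13.2 CPM against 11.2 and 12.3 CPM, and EGR1 at 105 and 132 CPM against 92 and 138 CPM. FOS had the day 5 order in repeat 1 alone, whereas EGR1 had it in repeat 2 alone. Against day 5, 0 of the 10 genes passed at day 7, where edgeR called 0.138% of 18071 genes. In that comparison 15.3% had an unadjusted p under 0.05 (edgeR), and DESeq2 called 168 genes. FOS and EGR1 had log2 fold changes of -0.28 and -0.15 from day 5 to day 7 (adjusted p = 0.15 and 0.567, edgeR). They were also lower without both repeat 2 libraries, which leaves 1 day 7 library per arm, so no call is read from that fit.

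Day 5 was compared with days 2 and 3, averaged over the arms. EGR3 and ARRDC3 were lower at day 5, 2 of the 10 genes, where 15.9% of 18449 genes differed, 10.3% higher and 5.56% lower. With library size alone as the scaling, 43.8% of the calls were higher, against 64.6% with DESeq2 size factors. EGR3 (chromosome 8, 22687659 to 22693480) was at 7.03 and 7.17 CPM at day 2 and at 9.32 and 9.39 CPM at day 3 (vehicle first), and at 5.15 to 5.76 CPM in the 6 libraries of day 5. No library of day 5 reached the lowest of days 2 and 3, and the log2 fold change was -0.61 (SE 0.113, adjusted p = 0.000365, edgeR), with the call lost in the vehicle arm alone. For ARRDC3 it was -0.34 (SE 0.0734, adjusted p = 0.00199, edgeR), and the call was lost without vehicle day 2 and in either arm alone. JUNB (0.17, adjusted p = 0.0443) and IER2 (-0.11, adjusted p = 0.0361) did not pass, though IER2 did with library size alone (adjusted p = 0.00513, edgeR). Of 17 alternatives, IER2 passed in 3, JUNB in 2, and FOS and EGR1 in 1 each. The change between these days was not shown to differ between the arms in any of the 10 genes, the smallest adjusted p being 0.115 for JUN (edgeR). The libraries of days 0 to 3 and of days 5 to 10 carry separate runs of library numbers in the labels, so time and that numbering cannot be told apart.

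The relatives of these genes were taken from lists chosen with earlier results known, and their counts at day 5 stand beside 12% higher and 14.1% lower over all genes tested. Among 9 AP-1 and ATF partners tested at day 5, 0 were higher and 1 lower with LLY-283. That gene was JUND, a JUN protein of steady expression, at 143 ± 7.21 CPM under vehicle and 128 ± 4.36 CPM under LLY-283 (SD, n = 3), with -0.16 as log2 fold change (SE 0.0398, adjusted p = 0.0018, edgeR). FOSL2, a FOS relative, gave 0.23 and did not pass (adjusted p = 0.0462). Of 32 other immediate early genes, 9 were higher and 6 lower, with a median of 0.178. Those of smallest p, though not of largest change, were PHLDA1, at 460 ± 16 and 606 ± 30.9 CPM, and BTG2, an antiproliferative gene, at 267 ± 1.28 and 343 ± 7.81 CPM, with log2 fold changes of 0.39 and 0.36.

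Of 11 genes of ERK output and feedback, 3 were higher and 2 lower at day 5, where all genes gave 12% and 14.1%. DUSP4, a phosphatase that inactivates ERK, was at 39.5 ± 1.5 CPM under vehicle and 55.2 ± 2.79 CPM under LLY-283, and the ETS factor gene ETV1 at 280.3 ± 17 and 342 ± 11.7 CPM, with log2 fold changes of 0.47 and 0.28. Of 11 upstream factors and kinases 0 were higher and 2 lower. These were ELK3, a partner of SRF, with -0.29, and SRF itself with -0.14 (adjusted p = 0.0085, edgeR), whose call was lost in 10 of 13 alternatives. Of 13 other KLF genes 4 were higher and 3 lower. KLF13 gave 0.24 and KLF5 0.39. Of 6 other arrestin genes 1 was higher, TXNIP, at 74.3 ± 2.95 and 94.1 ± 1.86 CPM with 0.33 as log2 fold change (SE 0.0433, adjusted p = 6.93e-07, edgeR), in the direction of ARRDC3. ARRDC4 gave 0.19 and did not pass. The calls of DUSP4, KLF13 and TXNIP were lost where the spread was shared over all 24 libraries.

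Heat shock genes, which respond to protein stress, were lower with LLY-283 at day 5 in 9 of 11, with 0 higher and a median of -0.296. Their summed level was 8389 to 8582 CPM under vehicle and 6713 to 7151 CPM under LLY-283. HSPA1B gave -0.53 and HSP90AA1 -0.45 on the log2 scale, and reads of HSPA1B can be shared with the near-identical HSPA1A. From day 0 to day 1 the heat shock sum went the other way from KLF6 and ATF3, from 7820 to 8127 CPM in all day 0 libraries up to 9500 CPM under vehicle and 9504 CPM under LLY-283. Its part in the values of the 10 genes was not tested.

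From day 0 to day 1, where 3.24% of all genes were lower and 1.59% higher by more than 0.5 in both arms, the lists went both ways. Of 33 other immediate early genes 1 was lower and 3 were higher. Of 13 other KLF genes 3 were lower, of 9 AP-1 and ATF partners 2 and of 6 other arrestin genes 1, with 0 higher in each. Of 11 heat shock genes 3 were higher and of 11 ERK genes 2, with 0 lower in both, and 0 of 11 upstream factors and kinases passed either way. The lower immediate early gene was PPP1R15A, a stress-response gene named here for its fall. It went from 52.7 to 22.1 CPM in vehicle and from 60.2 to 20.9 CPM in the LLY-283 arm. The KLF genes were KLF2, KLF4 and KLF11, and the AP-1 genes FOSL1 and FOSL2, all named after their values were seen. The arrestin gene was ARRDC4. The higher immediate early genes were BTG2 and, likewise named after their values were seen, ZFP36L1 and TRIB1, of which BTG2 went from 114 to 255 CPM and from 116 to 234 CPM.

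Profiles over the 24 libraries were compared by Pearson correlation of log2 CPM with 11523 other genes of at least 5 CPM in the mean. These are descriptions over libraries that share days, arms and the step after day 0, so the value over the 18 libraries after day 0 is given second. KLF6 was most like KLF2 (0.982 and 0.864), DHCR7 (0.968 and 0.879) and TWF2 (0.948 and 0.785). KLF2, a Krüppel-like factor gene, was at 35.4 to 45.2 CPM under vehicle and 52.3 to 53.6 CPM in the LLY-283 arm at day 0, and at 13 and 16.6 CPM at day 1. KLF2 was picked for its likeness to KLF6 over these same libraries, so its levels are a description. At day 5 it was at 13.3 to 15 CPM in vehicle and 10 to 11.9 CPM in the LLY-283 arm.

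ARRDC3 was most like NAP1L3 (0.954 and 0.88), MTURN (0.936 and 0.85) and THEM4 (0.93 and 0.817). EGR1 was most like NXPH4 (0.941 and 0.857), BHLHE40 (0.934 and 0.881), which encodes a transcriptional repressor, and GPR153 (0.922 and 0.821). FOS was most like LINC02577 (0.903 and 0.952), the receptor phosphatase gene PTPRZ1 (0.888 and 0.933) and NUMBL (0.871 and 0.937). For FOS the values after day 0 were the higher, and for the other 3 genes the lower. Among the 10 genes themselves the highest coefficients over 24 libraries were those of FOS with EGR1 (0.761) and of KLF6 with ARRDC3 (0.761), and the lowest that of EGR1 with KLF6 (-0.812). FOS with JUN gave 0.201. All of these coefficients include day 0, which the choice of the genes used. There KLF6 and ARRDC3 lay above, and EGR1 below, all later libraries of their arm. Values after day 0 were not computed for these pairs.

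**Figure D5:**
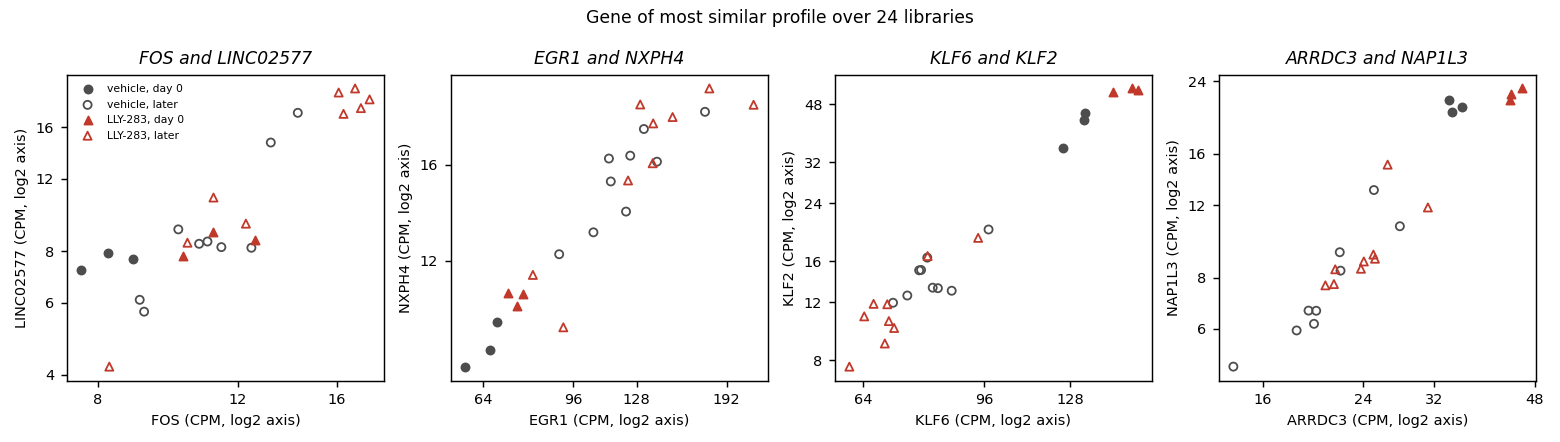
CPM of FOS, EGR1, KLF6 and ARRDC3 (horizontal) against that of the gene of most similar profile (vertical), both on log2 axes, for 24 libraries. Filled symbols are day 0 and open symbols later days. In KLF6 with KLF2 and in ARRDC3 with NAP1L3 the day 0 libraries stand apart at the upper right, and in FOS with LINC02577 they do not.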

How the data were processed

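The labels and the study's methods give directional poly(A) libraries from column-purified RNA, sequenced as 41 bp read pairs. The authors deposited estimated counts per Ensembl gene, which kallisto made against hg38 and which are whole numbers in the file. The kallisto version and its strand setting are not given in the sources used here. Symbols matched 58207 of 58676 identifiers. The 10 genes, the gene lists and the tests were chosen with earlier results of these data known. Comparisons used edgeR 4.0.16 in R 4.3.3 (filterByExpr, TMM, robust quasi-likelihood, Benjamini-Hochberg adjustment over all genes tested, calls at an adjusted p under 0.01), with terms for day and arm, and DESeq2 1.42.0 as an alternative. CPM used TMM factors over 24 libraries, and differences without a test used log2(CPM + 0.5). Marker sums used library size alone. Named besides the 10 genes are the 2 genes of smallest day 5 p in each list, the 3 of most similar profile to FOS, EGR1, KLF6 and ARRDC3, and those next to the day 0 threshold. Relatives of the 10 genes named outside this rule are so marked, and SOX10 and TYROBP are named as markers. Repeat numbers were not taken as pairs at day 5 or day 7. Promoter sequences and starts came from RefSeq (GRCh38.p14) and exons from GENCODE v44. Alternatives covered scaling, filters, DESeq2, the samples fitted, a replicate block and each library left out.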

Additional observations from a re-analysis of the deposited data

How the results depend on the processing

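For LLY-283 against vehicle at day 5 the number of genes that passed was 4304, 2036 with all 24 libraries in one fit, 4401 with the replicate block, and 3193 to 4423 without 1 library. With library size alone the median of all genes moved from 0.0206 to 0.0492, 55.3% of the calls were higher with LLY-283, and JUNB changed sign to 0.0057. At day 5 the deviations of same-numbered libraries from their arm means correlated at -0.0152 to 0.0311, so the numbers were not taken as pairs. At day 7 by label 0 genes passed, 27 without a filter, 3 with DESeq2, 0 with the replicate block, and 7 to 32 without 1 library. Deviations there correlated at -0.218 for the same number, and 36 passed with crossed pairing, which was chosen after seeing the data. EGR1 at day 7 changed sign to 0.0084 with library size alone. For LLY-283 against vehicle over days 2, 3 and 10, 0 genes passed, 530 without a filter, 54 with DESeq2, 69 at 0.05, and 0 to 65 without 1 day. Day 5 against days 2 and 3 gave 2931, 4896 at 0.05, 828 in vehicle alone, 1776 in the LLY-283 arm alone, and 1698 to 3683 without 1 library. There FOSB changed sign to -0.13 in vehicle alone, and JUN to -0.066 and ATF3 to 0.17 in the LLY-283 arm alone. Day 7 against day 5 gave 25, 331 without a filter, 38 at 10 or more counts in every library, 168 with DESeq2, 143 at 0.05, 0 with the replicate block, 540 without both day 7 repeat 2 libraries, and 2 to 282 without 1 library. Without both repeat 2 libraries JUN, JUNB and IER2 changed sign to -0.054, -0.071 and -0.061. The median change of the 10 genes in vehicle was -0.265 from day 0 to day 1 and -0.0802 from day 0 to day 5 with library size alone. Days 2, 3 and 10 were already paired by day, and no replicate block could be fitted for day 5 against days 2 and 3, where only repeat number 1 is shared. The cause of these differences was not tested.

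Genes that did not pass changed sign without 1 library as follows, in log2 fold change. For the comparison over days 2, 3 and 10 a whole day was left out in place of 1 library. At day 5 JUNB ran from -0.063 to 0.014 and ATF3 from -0.16 to 0.51. At day 7 FOS ran from -0.12 to 0.24, FOSB from -1.25 to 0.24, JUN from -0.23 to 0.14, JUNB from -0.34 to 0.087, EGR1 from -0.33 to 0.24, EGR3 from -0.048 to 0.40, IER2 from -0.40 to 0.15, ATF3 from -0.26 to 0.86 and KLF6 from -0.31 to 0.11. Over days 2, 3 and 10 FOSB ran from -0.68 to 0.28, JUN from -0.22 to 0.014, JUNB from -0.12 to 0.16 and IER2 from -0.10 to 0.027. ATF3 ran from -0.21 to 0.11 for day 5 against days 2 and 3. For day 7 against day 5 JUN ran from -0.062 to 0.12, JUNB from -0.0037 to 0.21, IER2 from -0.038 to 0.23, ATF3 from -0.0033 to 0.56 and ARRDC3 from -0.025 to 0.063. FOSB and ATF3 rest on few counts, which limits what could be detected.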
